A study of Mus musculus with 10 samples.

Results

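The genes described here are 10 genes of the circadian clock, measured by RNA sequencing (RNAseq) in interscapular brown adipose tissue (iBAT) of mice. They were chosen by name, with earlier results of these data known, and are the repressors Per1, Per2, Per3, Cry1 and Cry2, the activators Clock and Npas2, the nuclear receptors Nr1d1 and Nr1d2, and the output gene Dbp. All 10 were found among the 55414 genes of the count tables, and all 10 passed the filter on low counts. The study compared iBAT of 5 Cre- and 5 Cre+ mice. Both genotypes were male C57BL/6J mice homozygous for floxed alleles of RetSat (RetSat flox/flox), which encodes a retinol saturase, and both ate normal chow until 12 to 14 weeks of age. Cre+ mice also carried Ucp1-Cre, which expresses Cre recombinase from the promoter of the uncoupling protein gene Ucp1 and so acts in brown adipocytes, while other cells of the tissue keep RetSat. The mice lived in a 12 h light/dark rhythm, and the time of day at which iBAT was taken is not given in the sources used here.

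In nearly every mammalian cell, CLOCK, or its paralog NPAS2, pairs with BMAL1 and activates genes that carry E-box sequences, among them the Per and Cry genes. PER and CRY proteins then inhibit this activator pair, so that their own transcription stops until they are degraded. In a linked loop, REV-ERB proteins (Nr1d1, Nr1d2) repress and ROR proteins activate Bmal1, so that Bmal1 transcripts peak at about the opposite time of day from those of Nr1d1, Dbp and the Per genes. Dbp is a transcription factor that acts on D-box sequences and passes the rhythm on to output genes. Per1 is also induced quickly by signals from outside the clock, such as glucocorticoids and cAMP. Brown adipose tissue has such a clock, and its thermogenic program varies over the day.

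The Cre- libraries held 91903095 to 132499312 counts and the Cre+ libraries 96991071 to 110293494, and values are given as CPM, that is, counts relative to the TMM-normalized library size. RetSat, the deleted gene, was read at 151 to 255 CPM in the Cre- mice and at 18.0 to 39.0 CPM in the Cre+ mice, so that the groups did not overlap (log2 fold change -2.95 with an SE of 0.24 and an adjusted p of 0.00402 in the quasi-likelihood test of edgeR). Of 13 markers of brown adipocytes, 0 passed this test, and their summed level was 17060 to 21085 CPM in Cre- and 17248 to 21170 CPM in Cre+ mice. Cre- replicate 2 and Cre+ replicate 4 stood apart from the other libraries. The summed level of 14 skeletal muscle markers was 667 CPM in Cre- replicate 2 and 350 CPM in Cre+ replicate 4, against 46.2 to 73.1 CPM in the other libraries, and that of 10 immediate early genes, which respond quickly to outside signals, was 810 and 541 CPM. In the other Cre- mice the immediate early sum was 222 to 406 CPM and in the other Cre+ mice 131 to 241 CPM, so that the ranges overlapped. Nr4a1 alone made up 582 of the 810 CPM in Cre- replicate 2 and 338 of the 541 CPM in Cre+ replicate 4. Egr1, in contrast, was lower in Cre+ replicate 4 (4.37 CPM) than in any other mouse, so that the list was not raised as a whole. Between genotypes, single genes of this list went in both directions (log2 fold change -1.81 for Fosb and 0.59 for Junb by edgeR). Results that rest on these libraries are given with and without them, and the part of muscle or of immediate early transcripts in them was not tested. As iBAT is a mixture of cells, fewer cells of a type and less RNA per cell cannot be told apart.

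The stretch of 250 bases before the transcription start was searched for motifs on which clock proteins are known to act, because Per2 and Cry1 were found to vary together from mouse to mouse. The sequences are those of RefSeq on GRCm38.p6, an older build than the GRCm39 of the counts, and 9 of the 10 members were matched. Per2 was not matched. The motifs were the E-box CACGTG, the E-prime-box CACGTT, the D-box TTANGTAA, the RORE core TAGGTCA and the cAMP response element TGACGTCA, searched on both strands. Of 32851 promoters of this length, 6.02% held the E-box, 3.85% the E-prime-box, 2.06% the D-box, 2.23% the RORE core and 1.55% the cAMP response element. A match describes letters in this window and is no measure of binding. The promoters of Cry1, of the first listed start of Per1 and of Per3 are shown, 5′ to 3′ on the strand of the gene, since they differ in the kind of motif, with motifs in capitals. Cry1 lies on the minus strand at chr10:85185055-85185304 (motifs: AACGTG, the E-prime-box read on the other strand, and the E-box), Per1 on the plus strand at chr11:69098699-69098948 (E-box) and Per3 on the minus strand at chr4:151044666-151044915 (D-box at 2 places).
Cry1 promoter: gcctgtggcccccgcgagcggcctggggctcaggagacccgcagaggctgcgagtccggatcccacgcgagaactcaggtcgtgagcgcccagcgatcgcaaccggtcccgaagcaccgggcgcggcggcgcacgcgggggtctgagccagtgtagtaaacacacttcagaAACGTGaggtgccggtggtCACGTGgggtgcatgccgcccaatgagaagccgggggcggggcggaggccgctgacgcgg
Per1 promoter: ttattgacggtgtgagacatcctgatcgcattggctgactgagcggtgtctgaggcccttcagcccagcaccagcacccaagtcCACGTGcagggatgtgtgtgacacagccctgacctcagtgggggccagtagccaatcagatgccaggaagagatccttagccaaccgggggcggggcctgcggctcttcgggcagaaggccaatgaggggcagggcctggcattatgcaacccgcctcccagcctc
Per3 promoter: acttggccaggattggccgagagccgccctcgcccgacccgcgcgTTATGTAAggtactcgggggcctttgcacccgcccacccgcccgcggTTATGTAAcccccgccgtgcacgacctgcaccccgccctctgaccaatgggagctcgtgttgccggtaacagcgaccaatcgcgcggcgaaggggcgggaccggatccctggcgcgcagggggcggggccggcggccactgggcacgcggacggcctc
The E-box of Cry1 lay 60 to 55 bases before the start and its E-prime-box 79 to 74 bases before it. The E-box of Per1 lay 166 to 161 bases before the start. Per3 held D-box letters 205 to 198 and 158 to 151 bases before its start. Cry2 and Nr1d1 each held 1 E-prime-box, 166 to 161 and 28 to 23 bases before the start. None of the 5 motifs was found in this window of Clock, Npas2, Nr1d2 or Dbp, or at the second listed start of Per1.

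To compare the abundance of the members with each other, CPM were divided by the exon length in kb. Nr1d1 was the most abundant member in both genotypes, with 39.7 ± 11.2 CPM per kb (SD, n = 5) in Cre- and 46.7 ± 12.8 CPM per kb (SD, n = 5) in Cre+ mice. In Cre- mice it was followed by Dbp (19.1), Nr1d2 (19.0) and Per1 (17.1 CPM per kb), which differed from each other by less than 1 SD. Per2 (9.94), Per3 (6.37), Cry2 (5.67), Clock (4.78) and Cry1 (4.48 CPM per kb) came next, and neither Per3 and Cry2 nor Clock and Cry1 differed by 1 SD. In Cre+ mice Per2 stood in seventh place, at 4.94 CPM per kb, after Per1 (9.38), Per3 (5.55) and Cry2 (5.41), and none of these neighbours differed by 1 SD. Npas2 was last in both genotypes, with 0.0456 ± 0.0115 CPM per kb (SD, n = 5) in Cre- and 0.0740 ± 0.0286 CPM per kb (SD, n = 5) in Cre+ mice, which rests on 14 to 58 counts per library.

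How far a gene varied between mice of 1 genotype was described by the SD of its log2 CPM, whose median over the 17690 genes tested was 0.24. Per1 (0.78) varied more than 95.2% of these genes, and Bmal1, the partner of CLOCK, which the symbol table lists as Arntl, had an SD of 0.84. Per2 (0.47), Nr1d1 (0.46), Npas2 (0.54) and Dbp (0.40) were also more variable than most genes. Cry1 (0.24) and Clock (0.25) lay near the median, and Nr1d2 (0.18) and Cry2 (0.14) below it. The spread of Per1 rested on Cre+ replicate 4, without which its SD was 0.31 and that of Npas2 0.31, above 64.7% and 64.9% of all genes, against a median of 0.22. Bmal1 kept an SD of 0.66 and Per2 one of 0.42. The spread of a gene sets the difference between genotypes that 5 mice per group can show.

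Per2 and Per1, both repressors, had the largest log2 fold changes among the members. Per1, at chr11:68986043-69000786 of GRCm39, was read at 85.2, 122, 83.0, 73.2 and 119 CPM in Cre- replicates 1 to 5 and at 29.4, 36.5, 31.2, 144 and 22.9 CPM in Cre+ replicates 1 to 5. Of the Cre+ mice, 4 lay below every Cre- mouse, and replicate 4 lay above every Cre- mouse. The log2 fold change of Per1 was -0.87 with an SE of 0.53 (edgeR adjusted p = 0.554) over all mice and -1.69 (SE 0.19, adjusted p = 0.00256 by edgeR) without Cre+ replicate 4. Without both libraries rich in muscle transcripts it was -1.59 (adjusted p = 0.00324 by edgeR). The 2 highest Per1 values of all 10 mice came from Cre+ replicate 4 and Cre- replicate 2. The sums of immediate early and of muscle transcripts were highest in these libraries too, the former mostly through Nr4a1.

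Some immediate early genes shared part of the pattern of Per1. In 3 of the 10 (Fosb, Atf3 and Jun, which encode AP-1 and related transcription factors), the Cre+ mice other than replicate 4 lay below every Cre- mouse, as Per1, Per2 and Cry1 did, a pattern found in 3.71% of all genes. Atf3 was read at 7.73 to 17.4 CPM in Cre- mice, at 2.04 to 2.74 CPM in these 4 Cre+ mice and at 31.0 CPM in Cre+ replicate 4. Fosb had 2.86 to 10.3, 0.384 to 1.17 and 4.63 CPM, and Jun 42.8 to 80.5, 20.8 to 42.6 and 65.2 CPM, in the same order. Over all mice 0 of the 10 genes passed by edgeR or DESeq2. At an unadjusted p under 0.05 by edgeR, Fosb and Dusp1 were lower and Junb higher in Cre+ mice, against 5.95% and 6.4% of all genes. Junb (log2 fold change 0.59), Egr1 (0.42) and Ier2 (0.14) had positive values, and the other genes of the list negative ones. By limma voom 1 gene (Fosb) passed, where 0.52% of all genes were called lower. Without Cre+ replicate 4, edgeR called Atf3 (log2 fold change -2.32, SE 0.25, adjusted p = 0.00167) and Fosb (-2.99, SE 0.51, adjusted p = 0.0234) lower in Cre+ mice. In that fit 1.2% of all genes were called lower. Fosb, Atf3 and Jun thus shared with Per1, Per2 and Cry1 the place of these 4 Cre+ mice below the Cre- mice. Among the Cre- mice Fosb, Atf3 and Jun were highest in replicate 2, as was Per1 (122 CPM), whereas Per2 and Cry1 were lowest there. The part of these immediate early genes in the values of Per1, Per2 and Cry1 was not tested.

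Per2, whose protein binds CRY in the repressor complex, was read at 87.6, 32.6, 67.1, 52.6 and 51.2 CPM in the Cre- mice and at 31.7, 26.9, 23.4, 41.9 and 20.8 CPM in the Cre+ mice. Again replicate 4 was the highest Cre+ mouse, and the other 4 lay below every Cre- mouse, although Cre- replicate 2 came within 1 CPM of them. The log2 fold change was -1.01 (SE 0.27). It did not pass the test by edgeR (adjusted p = 0.189) or limma voom (adjusted p = 0.0543), and it did by DESeq2 (adjusted p = 0.00286). Without Cre+ replicate 4 it was -1.18 (adjusted p = 0.0698 by edgeR), and without both muscle-rich libraries -1.33 (adjusted p = 0.0114 by edgeR).

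Cry1, the stronger repressor of the CRY pair in the core loop, had 17.9, 11.4, 15.9, 14.5 and 15.2 CPM in Cre- mice and 10.4, 10.2, 9.27, 13.0 and 8.34 CPM in Cre+ mice. The order of the mice resembled that of Per2, with Cre- replicate 2 lowest among Cre- mice and replicate 4 highest among Cre+ mice. The log2 fold change was -0.55 (SE 0.14), with an adjusted p of 0.127 by edgeR, 0.0146 by DESeq2 and 0.0474 by limma voom. Without Cre+ replicate 4 it was -0.65 (adjusted p = 0.0227 by edgeR), and without both muscle-rich libraries -0.73 (adjusted p = 0.00566 by edgeR). Leaving out any other single library left the edgeR adjusted p of Cry1 and Per2 above 0.05.

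The other repressors showed smaller differences. Per3, a PER paralog that is dispensable for the core rhythm, had 47.7, 82.2, 62.2, 48.6 and 65.3 CPM in Cre- and 39.8, 43.3, 73.5, 54.0 and 56.1 CPM in Cre+ mice, so that the groups overlapped widely (log2 fold change -0.20 with an SE of 0.19 and an edgeR adjusted p of 0.71). Cry2 ranged from 29.8 to 40.9 CPM in Cre- and from 31.4 to 37.5 CPM in Cre+ mice (log2 fold change -0.07 with an SE of 0.08 and an edgeR adjusted p of 0.783). Over all 5 repressors the log2 fold change was negative, with a median of -0.55, against a median of 0.0018 over all genes tested.

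**Figure D1:**
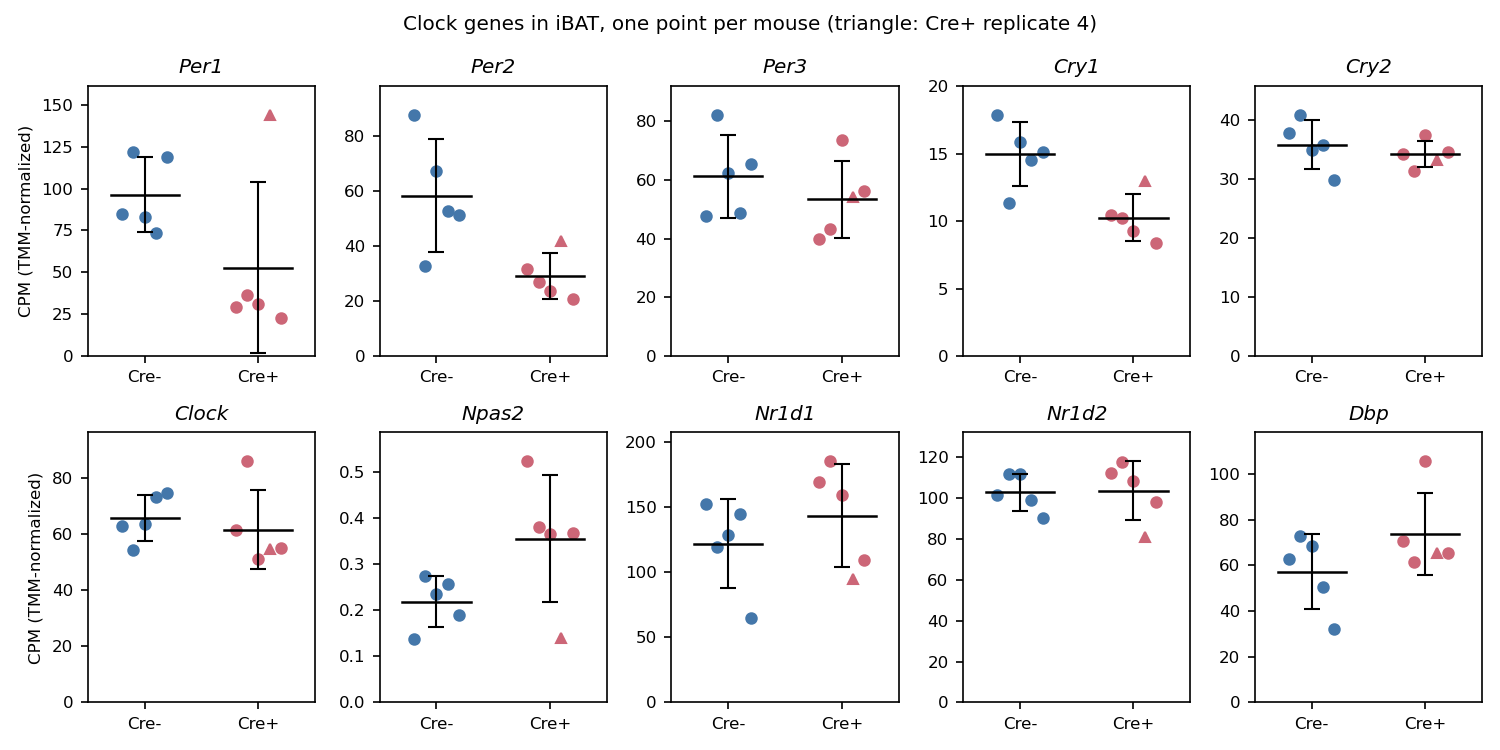
CPM of each clock gene in iBAT of the 5 Cre- and 5 Cre+ mice (y axis, from 0), one point per mouse, with the mean as a line and the SD as error bars. In Per1, Per2 and Cry1 the Cre+ points other than replicate 4 (triangle) lie below every Cre- point, while the groups overlap in the other genes, with Npas2 the reverse case.

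Among the activators, Clock was read at 62.7, 54.5, 63.4, 73.0 and 74.5 CPM in Cre- and at 61.4, 85.9, 51.1, 54.7 and 54.9 CPM in Cre+ mice. The groups overlapped, and the log2 fold change was -0.09 with an SE of 0.14 (edgeR adjusted p = 0.825). Bmal1, its partner, had 2.25, 1.60, 2.93, 4.68 and 4.45 CPM in Cre- and 4.06, 5.72, 1.95, 0.957 and 2.81 CPM in Cre+ mice. The groups overlapped, and the Cre+ mice held both extremes, the lowest in replicate 4 and the highest in replicate 2 (log2 fold change -0.04 with an SE of 0.45 and an edgeR adjusted p of 0.984). The 95% interval of this log2 fold change, -0.93 to 0.85 by a normal approximation, includes a difference of the size seen in Per1. Npas2 had 0.138, 0.273, 0.234, 0.258 and 0.190 CPM in Cre- and 0.522, 0.380, 0.365, 0.140 and 0.367 CPM in Cre+ mice. Here 4 Cre+ mice lay above every Cre- mouse and replicate 4 did not, and the log2 fold change was 0.70 with an SE of 0.33 (edgeR adjusted p = 0.412) over all mice and 0.90 (SE 0.27, adjusted p = 0.118 by edgeR) without replicate 4.

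Nr1d1 encodes REV-ERBα, a heme-binding repressor of Bmal1, and was read at 152, 120, 128, 145 and 65.0 CPM in Cre- and at 169, 185, 159, 95.1 and 110 CPM in Cre+ mice. The 3 highest values were from Cre+ mice, but the groups overlapped (log2 fold change 0.24 with an SE of 0.25 and an edgeR adjusted p of 0.749). Nr1d2, its paralog, was among the steadiest members, with 90.1 to 112 CPM in Cre- and 81.1 to 117 CPM in Cre+ mice (log2 fold change 0.01 with an SE of 0.10 and an edgeR adjusted p of 0.98). Dbp had 62.6, 72.6, 68.3, 50.3 and 32.0 CPM in Cre- and 70.5, 61.5, 105, 65.4 and 65.5 CPM in Cre+ mice. Its difference rested on the low Cre- replicate 5 and the high Cre+ replicate 3 (log2 fold change 0.37 with an SE of 0.22 and an edgeR adjusted p of 0.552). Exons of Dbp share 539 bp (18.0% of its exon length) with Sphk2 on the opposite strand, those of Nr1d1 share 263 bp (8.55%) with Thra and those of Cry2 share 295 bp (4.67%) with D930015M05Rik. As strand was not used in counting, reads from these stretches cannot be assigned to 1 of the genes.

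In all, 0 of the 10 members passed edgeR's test, which called 0.164% of all 17690 genes (0.13% as lower and 0.0339% as higher in Cre+ mice). At an unadjusted p under 0.05 by edgeR, 2 members were lower (Per2 and Cry1) and 0 higher, against 5.95% and 6.4% of all genes. DESeq2 called these 2 members lower, with a background of 1.22%, and limma voom called Cry1, with a background of 0.52%. Without Cre+ replicate 4, edgeR called Per1 and Cry1 lower, where 1.2% of all genes were called lower, and without both muscle-rich libraries Per1, Per2 and Cry1, where 1.09% were. The 3 genes in which 4 Cre+ mice lay below every Cre- mouse are Per1, Per2 and Cry1, a pattern that 3.71% of all genes showed with the same mouse set aside, and Npas2 lay the other way, as did 3.01%. Which mouse to set aside was chosen after the values were seen. In 0 of the 10 members did all Cre+ mice lie on 1 side of all Cre- mice, against 1.47% of all genes below and 1.2% above. The median log2 fold change of the members was -0.08.

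**Figure D2:**
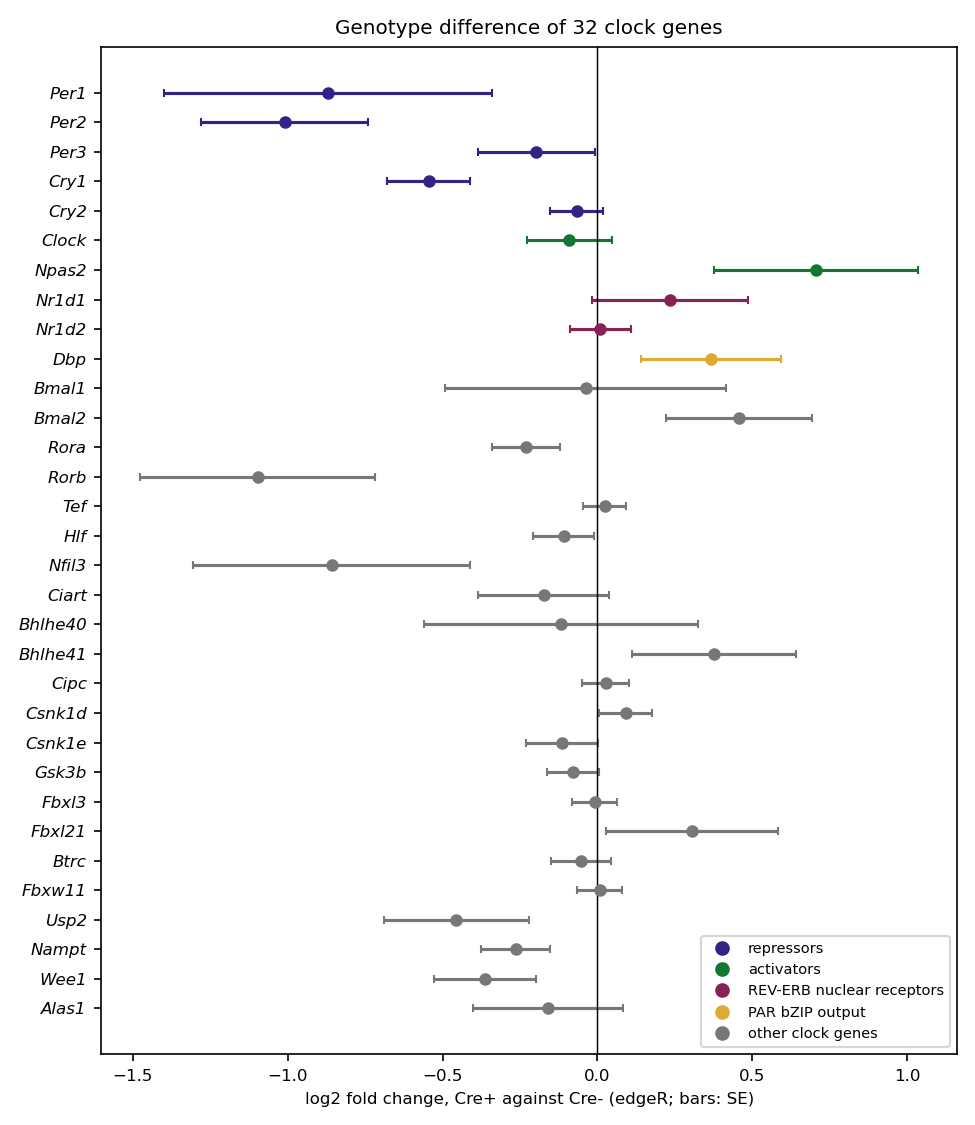
Log2 fold change of Cre+ against Cre- mice (x axis) for 32 clock genes (y axis), with bars for the SE of edgeR's fit. Per2 (-1.01), Per1 (-0.87) and Cry1 (-0.55) are the members farthest below 0 and Npas2 (0.70) and Dbp (0.37) those farthest above it, while most other clock genes lie near 0.

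The rest of the clock was read from a list of 22 further genes. Of these, 0 passed edgeR's test in either direction. At an unadjusted p under 0.05 by edgeR, 3 were lower (Rorb, Nampt and Wee1) and 0 higher, against 5.95% and 6.4% of all genes. DESeq2 and limma voom called 0 of the 22 genes. Their median log2 fold change was -0.09. Among the ROR receptors, which oppose the REV-ERB proteins, Rora differed by -0.23 (SE 0.11) on the log2 scale, and Rorb (-1.10, SE 0.38) was scarce, at 0.134 to 0.950 CPM. Tef, a PAR bZIP factor like Dbp, held 203 to 241 CPM in all 10 mice (log2 fold change 0.02, SE 0.07) and was one of the steadiest clock genes. Hlf, the third member of that family, had a log2 fold change of -0.11 (SE 0.10).

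Nfil3, which competes with DBP for D-box sequences, was read at 32.8, 16.7, 30.7, 35.9 and 40.6 CPM in Cre- and at 21.7, 20.9, 5.15, 29.0 and 9.80 CPM in Cre+ mice. Its groups overlapped through Cre- replicate 2 (log2 fold change -0.86 with an SE of 0.45 and an edgeR adjusted p of 0.478). Usp2, a deubiquitinase gene under clock control, had 93.8, 59.2, 99.8, 80.7 and 72.2 CPM in Cre- and 49.2, 55.6, 39.1, 96.6 and 55.3 CPM in Cre+ mice. As in Per1, 4 Cre+ mice lay below every Cre- mouse and replicate 4 was among the highest. Of the 22 further genes 1, Usp2, had its 4 other Cre+ mice below every Cre- mouse, against 3.71% of all genes. The order of the Cre- mice differed from that in Per1, as Usp2 was lowest in Cre- replicates 2 and 5, where Per1 was highest. Its log2 fold change was -0.46 with an SE of 0.23 (edgeR adjusted p = 0.467) over all mice and -0.70 (SE 0.16, adjusted p = 0.0496 by edgeR) without replicate 4. Of the other outputs, Nampt, which makes NAD in the salvage pathway, differed by -0.26 (SE 0.11) on the log2 scale and Wee1, a cell cycle kinase gene, by -0.36 (SE 0.16). The repressors Bhlhe40 (-0.12, SE 0.44), Bhlhe41 (0.38, SE 0.27) and Ciart (-0.17, SE 0.21) did not pass the test. The kinases and ubiquitin ligases that set the lifetime of PER and CRY lay between -0.11 (Csnk1e) and 0.31 (Fbxl21) on the log2 scale.

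The state of the clock in single mice was then read across genes. Cre- replicate 5 held the lowest Nr1d1 (65.0 CPM), Dbp (32.0 CPM) and Cry2 (29.8 CPM) of all 10 mice, together with high Bmal1 (4.45 CPM) and Clock (74.5 CPM). Cre+ replicate 3 held the highest Dbp (105 CPM) with the lowest Clock (51.1 CPM) and low Bmal1 (1.95 CPM) and Nfil3 (5.15 CPM). In these 2 mice Dbp and Bmal1 thus lay on opposite sides. Cre+ replicate 3 was also the library with the highest summed markers of white adipocytes and of fibroblasts, but not all single markers followed. The white adipocyte sum was mostly Retn, while Lep was highest in Cre- replicate 2 and Nnat in Cre- replicate 1. Of the fibroblast markers, Pdgfra, Col1a1 and Col3a1 were highest in Cre+ replicate 3 and Dcn in Cre- replicate 3. The part of these cells was not tested. In Cre+ replicate 2 the highest Bmal1 (5.72 CPM) and Clock (85.9 CPM) likewise came with the lowest Dbp of the Cre+ mice (61.5 CPM), but Nr1d1 was the highest of all 10 mice (185 CPM). Cre+ replicate 4 combined the highest Per1 (144 CPM) with the lowest Bmal1 (0.957 CPM) and Nr1d2 (81.1 CPM), while its Dbp (65.4 CPM) lay in the middle. Mice of 1 genotype therefore differed from each other in the balance of these genes.

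**Figure D3:**
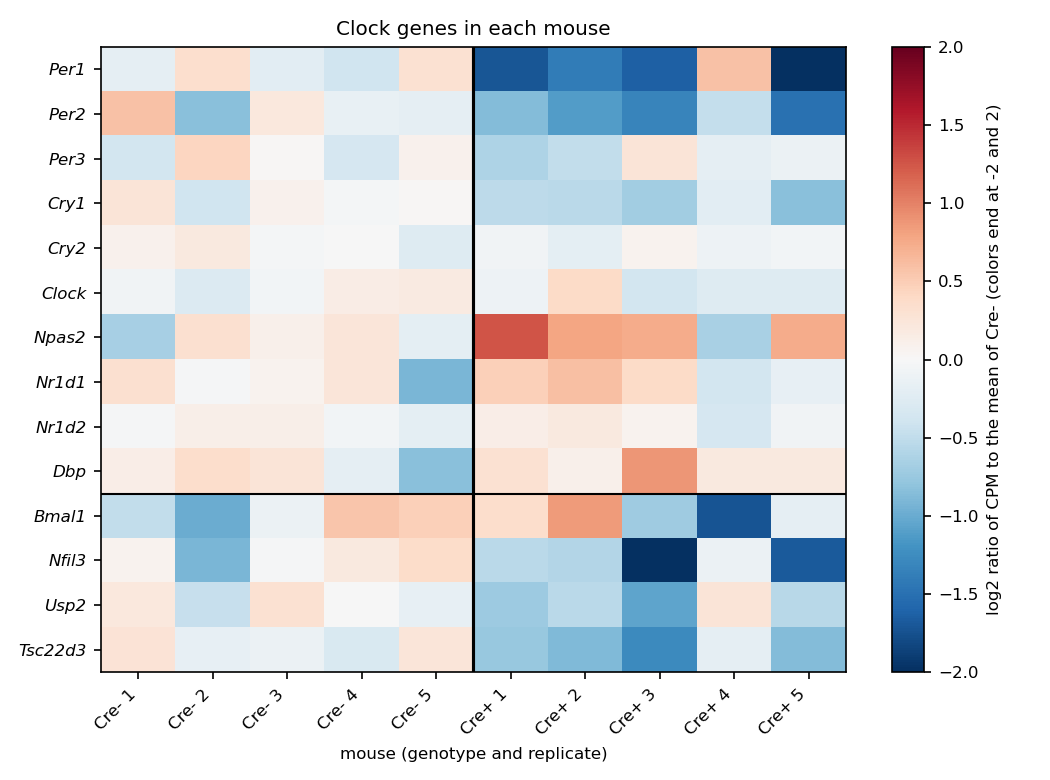
Log2 ratio of each gene's CPM to the mean of the Cre- mice (color, with the scale ending at -2 and 2) for each mouse (x axis), for the 10 members and, below the line, 4 further genes (y axis). Per1, Per2 and Cry1 are below the Cre- mean in Cre+ replicates 1, 2, 3 and 5, and in Cre+ replicate 4 Per1 is above it, at 144 CPM.

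To see which clock genes varied together, log2 CPM were compared between mice after the mean of each genotype had been subtracted, for all 55 pairs of the members and Bmal1, with an exact permutation test of the mice within genotypes. Per2 and Cry1 were the only pair that passed after Benjamini-Hochberg adjustment. Their Pearson's r was 0.97 (adjusted p = 0.00764, two-sided exact permutation test) and their Spearman's rho 0.95 (adjusted p = 0.0229, exact permutation test) over 10 mice. Without the 2 mice farthest from the median of Per2 (Cre- replicates 1 and 2) r was 0.95, and leaving out any single mouse gave 0.951 to 0.982. Without both muscle-rich libraries r was 0.928, but with 576 arrangements left the smallest p they allow, times 55 pairs, is 0.0955, so that no pair alone could pass. Of 17689 genes compared with Per2, Cry1 had the 4th highest r, and of those compared with Cry1, Per2 had the 2nd highest. In the same ranking Cry2 was 15th for Dbp, Nr1d2 122nd for Nr1d1 and Clock 319th for Bmal1, so that many genes outside the clock followed Bmal1 more closely than Clock did.

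**Figure D4:**
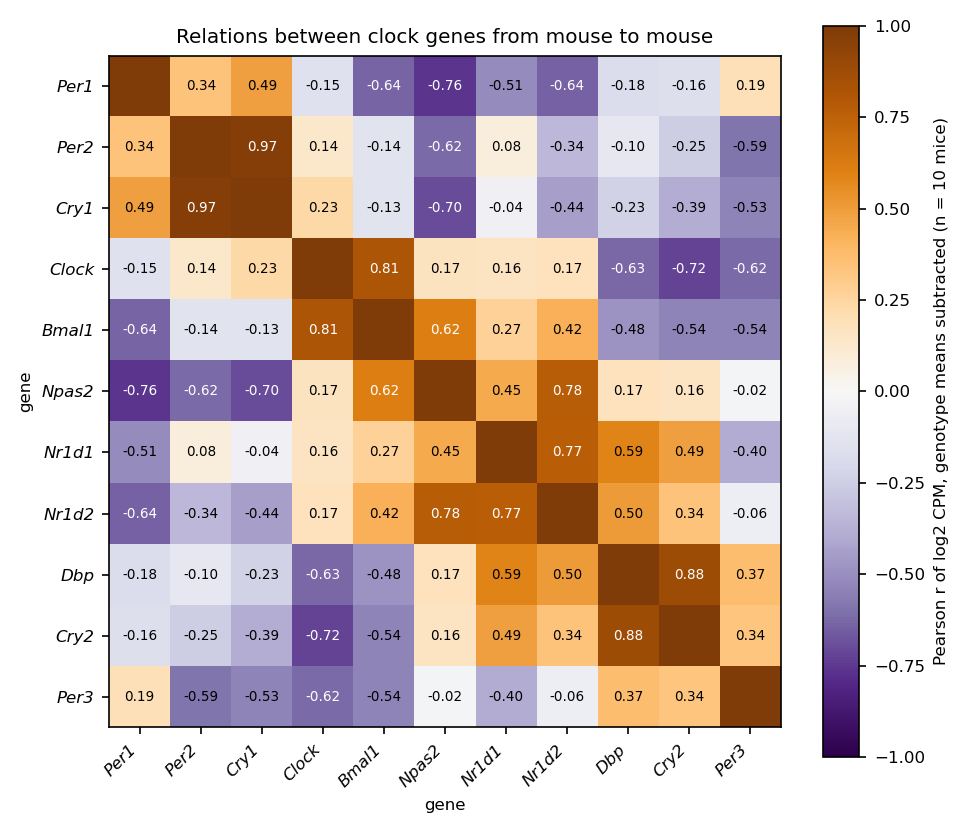
Pearson's r between the log2 CPM of clock genes over 10 mice (color and printed value), after subtraction of genotype means, for the genes on both axes, in an order chosen after the values were seen. Per2 and Cry1 (0.97) form the strongest pair, followed by Dbp and Cry2 (0.88) and Bmal1 and Clock (0.81), while Per1 and Npas2 (-0.76) and Cry2 and Clock (-0.72) have the most negative values, the first of which was 0.07 without Cre+ replicate 4.

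The other relations did not pass the test, and in the following r' is r without the 2 mice farthest from the median of the first gene named. The most negative r, that of Per1 and Npas2 (-0.76, adjusted p = 0.400, exact permutation test; rho = -0.47, adjusted p = 0.569, exact permutation test; r' = -0.28), rested on Cre+ replicate 4, without which it was 0.07. Cry2 and Clock had r = -0.72 (adjusted p = 0.127, exact permutation test), rho = -0.75 (adjusted p = 0.324, exact permutation test) and r' = -0.73, and r stayed between -0.79 and -0.65 when single mice were left out. Clock and Bmal1 had r = 0.81 (adjusted p = 0.127, exact permutation test), rho = 0.89 (adjusted p = 0.0573, exact permutation test) and r' = 0.73. Without Cre+ replicate 4 this pair passed (r = 0.917, adjusted p = 0.0191, exact permutation test). Cry2 and Dbp had r = 0.88 (adjusted p = 0.127, exact permutation test), rho = 0.82 (adjusted p = 0.135, exact permutation test) and r' = 0.71, and passed without Cre- replicate 3 (r = 0.962, adjusted p = 0.0286, exact permutation test). Nr1d1 and Nr1d2 had r = 0.77 (adjusted p = 0.127, exact permutation test), rho = 0.65 (adjusted p = 0.424, exact permutation test) and r' = 0.38. Per1 and Per2, although paralogs with like differences between genotypes, had r = 0.34 (adjusted p = 0.545, exact permutation test), rho = 0.24 (adjusted p = 0.769, exact permutation test) and r' = -0.47.

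The genes known to peak opposite to Bmal1 gave no relation that passed. Dbp and Bmal1 had r = -0.48 (adjusted p = 0.404, exact permutation test), rho = -0.48 (adjusted p = 0.569, exact permutation test) and r' = -0.42. Per1 and Bmal1 had r = -0.64 (adjusted p = 0.400, exact permutation test), rho = -0.47 (adjusted p = 0.569, exact permutation test) and r' = -0.30, and r was -0.03 without Cre+ replicate 4, so that the relation rested on this mouse. Nr1d1 and Bmal1 had r = 0.27 (adjusted p = 0.71, exact permutation test), rho = 0.48 (adjusted p = 0.569, exact permutation test) and r' = 0.36, and r ranged from -0.07 to 0.73 when single mice were left out. With Bmal1, Per2 had r = -0.14 (adjusted p = 0.798, exact permutation test) and Per3 had r = -0.54 (adjusted p = 0.400, exact permutation test). For Nr1d2 and Bmal1 r was 0.42 (adjusted p = 0.545, exact permutation test). Clock and Dbp had r = -0.63 (adjusted p = 0.310, exact permutation test), rho = -0.66 (adjusted p = 0.424, exact permutation test) and r' = -0.57. In all, 29 of the 55 values of r were negative. With 1 sample per mouse and no time of day, a relation between mice gives no phase.

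**Figure D5:**
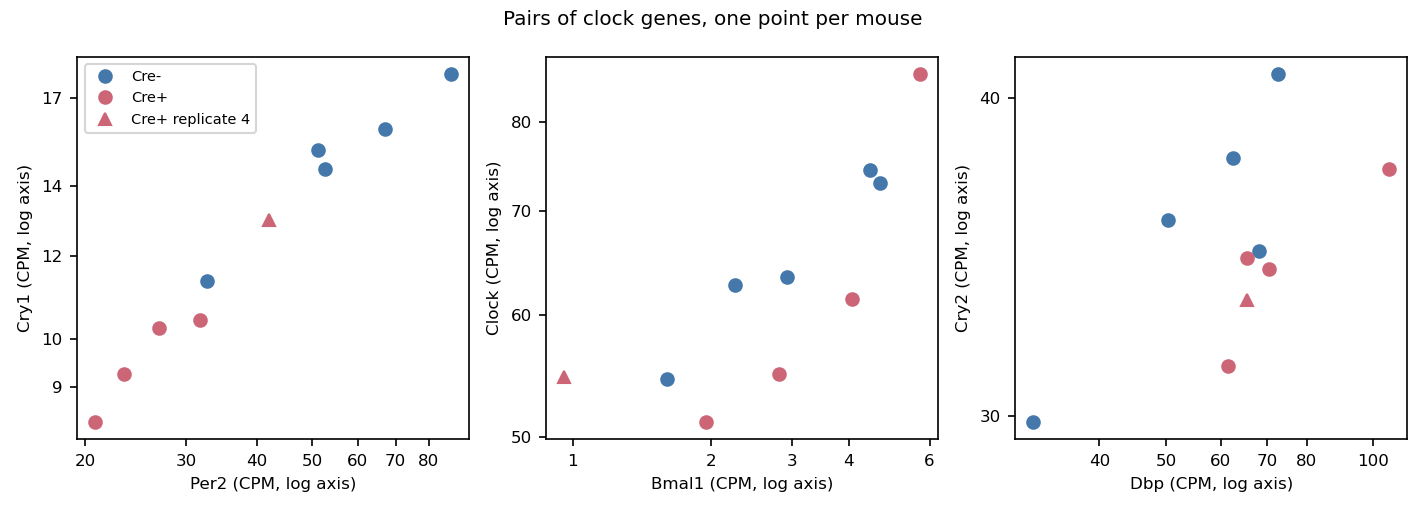
CPM on log axes for Per2 and Cry1 (left), Bmal1 and Clock (middle) and Dbp and Cry2 (right), one point per mouse, with Cre+ replicate 4 as a triangle. In the left panel the mice of both genotypes fall along 1 line, from 20.8 CPM of Per2 and 8.34 CPM of Cry1 to 87.6 and 17.9 CPM, while the points of the other panels scatter more.

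The genes most like Dbp and Bmal1 from mouse to mouse were sought among 10525 named genes outside the clock lists, over the 10 mice after subtraction of genotype means, as a description. Those most like Dbp were Inip (r = 0.93), Mir99ahg (0.89), Rps6kb2 (0.89), Wdr5b (0.89) and Tecr (0.88), and those most opposite were Grk4 (-0.96), Itprid2 (-0.95), Hip1r (-0.94), Pogk (-0.88) and Alkbh2 (-0.88). Those most like Bmal1 were Atp6v0a2 (0.98), Ganab (0.97), Atp6ap1 (0.97), Ei24 (0.96) and Tgoln1 (0.96), of which Atp6v0a2 and Atp6ap1 encode parts of the vacuolar proton pump. The most opposite to Bmal1 were Sorbs3 (-0.96), Rnf19b (-0.96), Cptp (-0.95), Cbr3 (-0.95) and Erbb3 (-0.94). None of these 20 genes passed edgeR's test between genotypes, with adjusted p of 0.115 (Alkbh2) or higher.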

How the data were processed

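RNA of iBAT had been sequenced for 5 mice of each genotype. Per their processing notes, the authors used Trimmomatic for trimming, STAR for alignment to GRCm39 and featureCounts 2.0.1 for counting. The deposited files hold raw counts of 55414 genes of GENCODE M28, made from each mate singly, without strand and without reads of several alignments. Symbols for 52081 genes (94.0%) came from a table of identifiers. Each numbered sample was taken as 1 mouse, and p-values measure the spread between these samples.

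Genotypes were compared with edgeR 4.0.16 in R 4.3.3 (TMM, filterByExpr with minimum counts of 10 and 15 in total, robust quasi-likelihood F test), Benjamini-Hochberg adjustment over 17690 genes and a threshold of 0.05. The SE was obtained as the log2 fold change over the square root of F. log2 CPM have a prior count of 2. Alternatives were DESeq2 1.42.0, limma voom 3.58.1 with sample quality weights, other scalings and filters, a replicate block and libraries left out. The tests were checked on simulated data. Relations between genes were tested over 14400 arrangements with scipy 1.17.1.

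The members and gene lists were chosen with earlier results of these data known. All 10 members and RetSat are named, with the other clock genes as needed, and with the 5 genes of highest and the 5 of lowest r to Dbp and to Bmal1 (mean log2 CPM of at least 1, no predicted genes). Genes that respond to glucocorticoids were added as context. Values of 1 gene of the lists are not reported here.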

Additional observations from a re-analysis of the deposited data

Results flagged for a closer look

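In each genotype, 30 genes named here were checked for a mouse far from the other 4 by Dixon's criterion (0.71 for 5 samples), which chance exceeds in about 5% of groups. Of 60 groups, 5 held such a mouse. Per1 was 144 CPM in Cre+ replicate 4, against 22.9 to 36.5 CPM in the other Cre+ mice, and Usp2 was 96.6 CPM in the same mouse, against 39.1 to 55.6 CPM. That library also held 350 CPM of muscle markers and 541 CPM of immediate early genes, of which 338 CPM were Nr4a1. The part of these transcripts in the values of Per1 and Usp2 was not tested. Dbp was 105 CPM in Cre+ replicate 3, against 61.5 to 70.5 CPM in the other Cre+ mice. RetSat was 39.0 CPM in Cre+ replicate 3, against 18.0 to 23.0 CPM. Cre+ replicate 3 also had the highest sum of 3 white adipocyte markers (140 CPM, against 37.9 to 94.5 CPM in the other libraries). Of this sum 113 CPM were Retn, while Lep (21.6 CPM) and Nnat (5.86 CPM) were higher in Cre- replicates 2 (23.2 CPM) and 1 (7.75 CPM). The sum of 4 fibroblast markers was highest in Cre+ replicate 3 as well (831 CPM, against 353 to 692 CPM), although Dcn (128 CPM) was higher in Cre- replicate 3 (132 CPM). The part of these cells in its values was not tested. Wee1 was 6.91 CPM in Cre- replicate 4, against 9.64 to 9.93 CPM in the other Cre- mice.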

How the results depend on the processing

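The number of members called lower in Cre+ mice, 0 by edgeR, was 2 by DESeq2, 1 by limma voom, 1 with no filter on low counts and 3 without both muscle-rich libraries, and 0 to 2 when single libraries were left out (2 without Cre+ replicate 4). Of the other clock genes, 0 were called, but 1 (Usp2) without both muscle-rich libraries and 0 to 1 when single libraries were left out (1 without Cre+ replicate 4). The cause was not tested. The number of pairs of genes that passed, 1, was 1 to 2 when single libraries were left out and 0 without both muscle-rich libraries, where fewer arrangements remain. RetSat passed in all 19 alternatives (log2 fold change -3.20 to -2.64).

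Values whose direction depends on the processing had a log2 fold change smaller than its SE over all mice. That SE was wide for Bmal1 (0.45) and Bhlhe40 (0.44). Without the 3 Cre+ libraries whose identifier carries an added letter, a mark that only Cre+ libraries have, the log2 fold change was 0.057 for Clock, 0.26 for Bmal1 and 0.41 for Bhlhe40, and without both muscle-rich libraries 0.024 for Bmal1 and 0.026 for Bhlhe40. Leaving out single libraries gave -0.038 to 0.085 for Nr1d2, -0.38 to 0.19 for Bmal1, -0.0016 to 0.056 for Tef, -0.29 to 0.0040 for Ciart and -0.31 to 0.22 for Bhlhe40. Per1, Per2, Cry1 and Npas2 kept their direction in all 19 alternatives. Without the 3 lettered libraries the edgeR adjusted p was 0.0536 for Per1, 0.327 for Per2 and 0.19 for Cry1.

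The labels do not say whether the same replicate number in both genotypes pairs the mice, and the values do not settle it. Deviations of same-numbered libraries correlated at -0.20 to 0.22, and 2 of 5 Cre- and 3 of 5 Cre+ libraries correlated best with their own number. With the replicate block, 23 genes were called in place of 29, members called stayed at 0, and the log2 fold change was -2.99 for RetSat, -1.28 for Per1, -0.98 for Per2 and -0.55 for Cry1 (adjusted p = 0.17 by edgeR). For counts as low as those of Npas2 (14 to 58 per library) depth limits what can be seen.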

Other observations

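Per1 responds to glucocorticoids as well as to the clock, and 6 further genes known to respond to glucocorticoids were read beside it. Tsc22d3, which encodes the leucine zipper protein GILZ, had 77.2, 57.5, 59.0, 51.8 and 75.7 CPM in Cre- and 37.9, 34.8, 26.7, 56.6 and 35.3 CPM in Cre+ mice. As in Per1, Per2 and Cry1, the Cre+ mice other than replicate 4 lay below every Cre- mouse, a pattern found in 3.71% of all genes. Its log2 fold change was -0.75 (SE 0.19), with an adjusted p of 0.149 by edgeR, 0.00552 by DESeq2 and 0.0386 by limma voom, and -0.93 (adjusted p = 0.00601 by edgeR) without Cre+ replicate 4. Of all genes, DESeq2 called 1.22% lower, limma voom 0.52% and edgeR without Cre+ replicate 4 1.2%. Sgk1, a kinase gene, was 86.6 to 119 CPM in Cre- and 79.1, 47.9, 28.7, 120 and 35.4 CPM in Cre+ mice, again with replicate 4 as the exception (log2 fold change -0.71, SE 0.37, adjusted p = 0.486 by edgeR). The other 4 genes did not follow. Fkbp5 had a log2 fold change of -0.27 (SE 0.36), Zbtb16 one of -0.15 (SE 0.54), Mt1 one of 0.07 (SE 0.12) and Mt2 one of -0.02 (SE 0.14). Fkbp5 and Zbtb16 were lowest, in each genotype, in the muscle-rich library, with 5.74 and 14.5 CPM in Cre- replicate 2 and 6.85 and 10.3 CPM in Cre+ replicate 4. The part of glucocorticoids in the values of Per1 and of these genes was not tested.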
